A study of Mus musculus with 36 samples.

Results

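MicroRNAs (miRs) were compared between cultured lung endothelial cells (ECs) of LA-Tg mice and of wildtype (WT) mice. The comparison held 6 of the 36 libraries of the series, 3 labelled LA-Tg and 3 labelled WT, and was chosen by the genotype in the sample labels. LA-Tg mice carry a wildtype human lamin A minigene under a tet operon together with a transactivator (tTA) driven by the VE-cadherin (Cdh5) promoter, which is active in endothelium. They serve in the study as the control for Prog-Tg mice, which carry the same kind of minigene with the progeria mutation, so the question is what wildtype lamin A expression alone goes with. The tet operon line was on C57BL/6J and the Cdh5-tTA line came from FVB, the bi-transgenic mice were kept on a largely C57BL/6J background, and the WT animals were littermates. ECs came from lungs of mice 10 to 15 days old by the labels, were sorted with ICAM-2 beads, received no treatment and were grown to passage 3. The libraries were made with the QIAseq miRNA kit. Whether the 3 libraries of a genotype came from separate animals is not stated in the labels, so the p values measure the spread between these libraries. Headings of a supplementary sheet give the genotypes of the EC miR columns in another order than the sample labels. Which order is right is unresolved, and the direction of every difference below holds only as far as the sample labels do.

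A miR is cut from a hairpin precursor by Drosha with DGCR8 and then by Dicer, and either the 5p or the 3p arm is usually kept by Argonaute while its partner is degraded. The kept strand finds target mRNAs mainly through its seed, bases 2 to 8, and lowers their stability and translation. miRs with the same seed form a family. In ECs the best known is miR-126, which lies within Egfl7 and supports signalling downstream of VEGF.

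The results turn on a small number of miRs, whose mature sequences (RefSeq, GRCm38.p6) follow from 5′ to 3′ with the seed in capitals. The first set is shown because the LA-Tg libraries lay above all WT libraries.
miR-6240: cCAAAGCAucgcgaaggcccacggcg
miR-7213-3p: uACCUCAAgagagccagucu
miR-23b-5p: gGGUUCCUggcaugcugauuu
miR-28a-3p: cACUAGAUugugagcugcugga
miR-194-2-3p: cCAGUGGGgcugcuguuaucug
miR-1198-5p: uAUGUGUUccuggcuggcuugg
miR-365-3p: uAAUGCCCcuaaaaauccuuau

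The second set holds miR-125b-5p, which was also higher, and the other tested miRs with its seed CCCUGAG.
miR-125b-5p: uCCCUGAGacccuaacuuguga
miR-125a-5p: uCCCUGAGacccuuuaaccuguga
miR-351-5p: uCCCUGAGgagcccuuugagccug

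The third set holds miRs whose LA-Tg libraries lay below all WT libraries, and the miR-181 family, in which members with the same seed ACAUUCA differed.
miR-181c-5p: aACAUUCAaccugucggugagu
miR-181d-5p: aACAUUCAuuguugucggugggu
miR-181a-5p: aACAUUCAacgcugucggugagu
miR-181b-5p: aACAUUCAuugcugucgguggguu
miR-219a-5p: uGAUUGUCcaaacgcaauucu
miR-99a-3p: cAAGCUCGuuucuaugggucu

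The last set is the EC miR-126a-3p, the p53 target miR-34a-5p, and miR-206-3p, a skeletal muscle miR that 1 library decided.
miR-126a-3p: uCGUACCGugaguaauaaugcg
miR-34a-5p: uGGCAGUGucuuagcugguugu
miR-206-3p: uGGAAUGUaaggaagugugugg

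Library totals were 18477136, 3486916 and 2015256 counts in WT replicates 1 to 3 and 14395756, 3314673 and 3619858 in LA-Tg replicates 1 to 3. Between 690 and 1006 miRs had a count in one of these 6 libraries, and 446 of the 1907 miRs in the table were kept for testing. The values below are normalized read counts in CPM, which are counts relative to the TMM-scaled library total.

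Libraries did not group by genotype. Across the 446 miRs the mean Pearson r of log2 CPM was 0.93 over the 6 pairs of libraries of the same genotype and 0.938 over the 9 pairs of a WT with an LA-Tg library. Among the 6 WT and LA-Tg libraries WT replicate 2 was closest to LA-Tg replicate 2 (r = 0.977), and its r with Prog-Tg replicate 2 was 0.983. WT replicate 3 was closer to LA-Tg replicate 1 (r = 0.961) than to either WT library (r = 0.93 and 0.927). LA-Tg replicate 3 stood apart from the other 5, with r of 0.93 or less. It was nearest to Prog-Tg replicate 3 (r = 0.989), the closest pair among all 9 EC miR libraries. Their counts differed beyond sampling noise (chi-square per degree of freedom 30.5), so they are not 1 library deposited again, but the next closest pair by this measure had 156. In the mRNA of ECs with the same labels the r of this pair was 0.942, within the range of 0.882 to 0.986 over all pairs. Whether these 2 libraries carry the right labels was not tested. The values of the leading miRs that move most without LA-Tg replicate 3 are given with and without it.

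**Figure D1:**
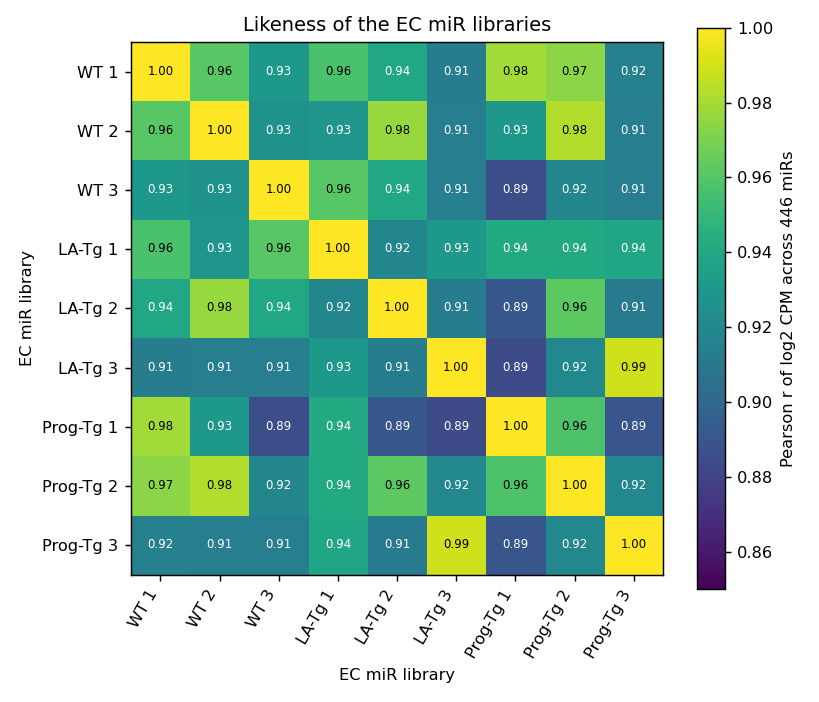
Pearson r of log2 CPM across 446 miRs for each pair of the 9 EC miR libraries, which stand in both rows and columns. The pair LA-Tg 3 and Prog-Tg 3 reaches 0.989, and the WT block and the LA-Tg block are no brighter than the field between them.

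LA-Tg replicate 3 also held many of the extremes. It was the highest of the 6 libraries for 113 miRs and the lowest for 118 of 446, while WT replicate 3 was the lowest for 112. LA-Tg replicate 3 lay under 50% of the next lowest library for 55 miRs. In the other 5 libraries that last count was between 3 and 28.

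The libraries also differed by the base composition of the miR. A mature sequence was at hand for 383 of the 446 miRs (85.9%). In WT replicates 1 and 2 and LA-Tg replicate 2, GC-poor miRs were high and GC-rich miRs low relative to the mean of the 6 libraries (Spearman correlation across miRs of the deviation with GC content -0.387, -0.575 and -0.426). In WT replicate 3 and LA-Tg replicates 1 and 3 the relation ran the other way (0.365, 0.351 and 0.42). Hence 2 of 3 LA-Tg libraries and 1 of 3 WT libraries leaned to GC-rich miRs, and the groups overlapped. The log2 fold change of LA-Tg against WT moved with GC content (Spearman correlation 0.389 across 383 miRs, which share the same 6 libraries). Its median was -0.31 for the 105 miRs with 22.7 to 40.9% GC, 0.08 and 0.20 in the middle quartiles, and 0.32 for the 87 miRs with 55 to 100% GC. In the lowest quartile 81 of 105 miRs were below 0 and in the highest 64 of 87 were above 0. The part of this in each single miR below was not tested, but values from fits that remove the GC relation, chosen after seeing the data, are given beside most of the leading miRs. In one a smooth curve of each library's deviations on GC was removed as an offset, and in the other the library's GC correlation was a term of the model.

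**Figure D2:**
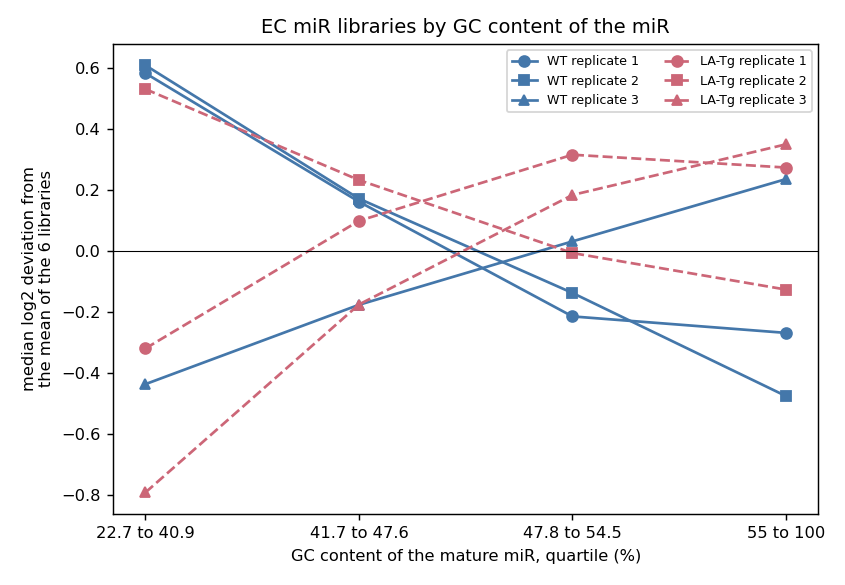
Median log2 deviation of the miRs in each quartile of GC content (percent GC of the mature miR) from the mean of the 6 libraries, for 3 WT (blue, solid) and 3 LA-Tg (red, dashed) libraries. WT 1, WT 2 and LA-Tg 2 fall from left to right and WT 3, LA-Tg 1 and LA-Tg 3 rise, with LA-Tg 3 lowest in the GC-poor quartile at -0.79.

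The EC label was checked against marker miRs. miR-126a-3p and miR-126a-5p together made up 243900 to 539900 CPM in WT and 190800 to 587400 CPM in LA-Tg libraries. Of the markers of other cells, the erythroid miRs summed to 3.67 CPM or less and the leukocyte miRs to 14.8 CPM or less. The lymphocyte miR-150-5p was higher, at 256.9, 126.6 and 1390 CPM in WT and 459, 350.7 and 52.7 CPM in LA-Tg. The striated muscle miRs summed to 13.3 to 28.9 CPM in 5 libraries and to 185.9 CPM in LA-Tg replicate 3. Fibroblast miRs (miR-199a and miR-214) were present in all 6, at 4189 to 12110 CPM in WT and 1799 to 10860 CPM in LA-Tg. The mural miRs miR-143-3p and miR-145a-5p varied most, at 1237, 51.2 and 518 CPM in WT and 2782, 27.4 and 318 CPM in LA-Tg. Epithelial miRs summed to 24.0 to 53.9 CPM in WT and 32.3 to 84.2 CPM in LA-Tg. The hepatic miR-122-5p stood at 14.85 to 25.0 CPM in WT and 17.5 to 47.5 CPM in LA-Tg. Neural miRs summed to 167, 48.1 and 19.4 CPM in WT and 40.2, 35.9 and 49.75 CPM in LA-Tg. In bulk samples fewer cells of a type and less RNA per cell cannot be told apart. In the EC mRNA libraries Lmna, the mouse lamin A/C gene, stood at 284, 177 and 200 CPM in WT and 251, 401 and 421 CPM in LA-Tg (log2 fold change 0.70 ± 0.32 SE, unadjusted p = 0.057, adjusted p = 1). The transgene is human, so this checks the labels only as far as its reads were counted on the mouse gene.

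No miR passed an adjusted p under 0.05 in LA-Tg against WT (edgeR quasi-likelihood test, 0 of 446, 0%), and the smallest adjusted p was 0.971. DESeq2 and limma-voom also called 0. At the study's threshold, an unadjusted p under 0.05, 2 miRs were higher (0.448% of those tested) and 1 was lower (0.224%). DESeq2 had 6 at this threshold and limma-voom 5. With RLE scaling the split was 2 higher and 2 lower, and with library size alone 3 higher and 0 lower. A median of 0.05 and a range of -1.84 to 4.12 described the log2 fold changes of all 446 miRs, of which 236 (52.9%) were above 0. The typical standard error was 0.50 for the 57 miRs of at least 1000 CPM and 0.80 for the 153 miRs under 10 CPM, against median absolute differences of 0.34 and 0.47. A difference of the typical size was thus smaller than its error at every abundance.

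Few miRs passed even the unadjusted threshold. The 3 LA-Tg libraries lay above all 3 WT libraries for 26 miRs (5.83%) and below for 5 (1.12%). This split depended on the scaling. It was 14 and 10 with RLE scaling and 8 and 10 with library size alone. Of the 26, 7 kept their place under all 3 scalings, and of the 5, 2 did. The 26 had a median of 54.5% GC and the 5 a median of 45.5%, against 47.6% for all miRs with a sequence. Such separated miRs were found at every abundance, from 1.47 to 66520 CPM, but 10 of the 26 lay under 10 CPM. Some of these, such as miR-7224-3p, miR-7213-3p, miR-7018-3p and miR-185-3p, passed the filter only through LA-Tg and Prog-Tg libraries. Their place on the higher side was thus favoured by the filter. In an exact permutation test 3 libraries against 3 cannot give a two-sided p under 0.1, and every miR without overlap reaches that value.

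**Figure D3:**
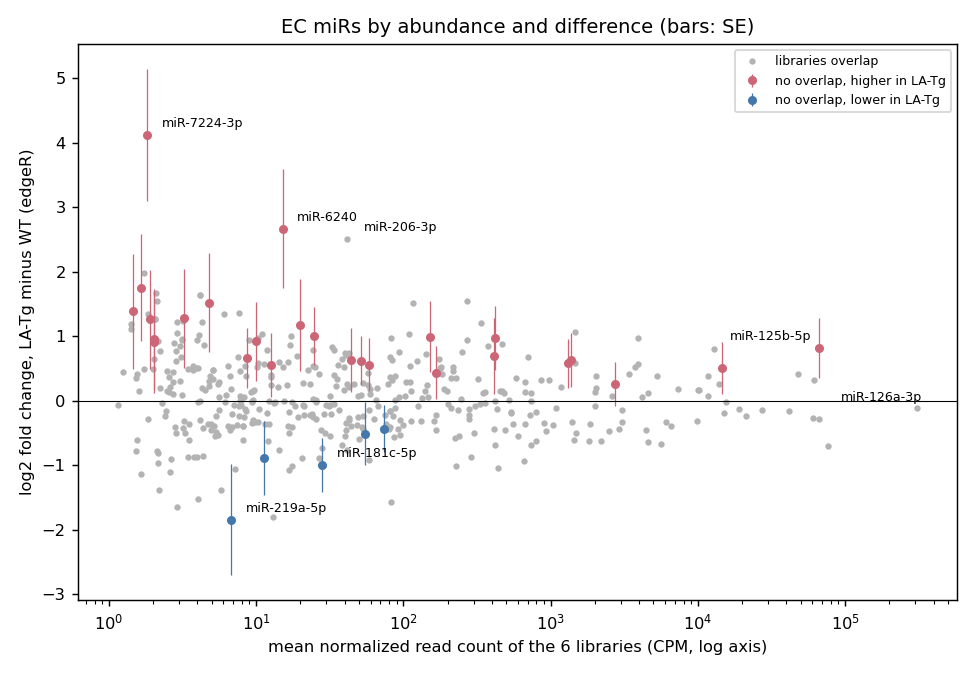
Log2 fold change of LA-Tg minus WT (edgeR) against the mean normalized read count of the 6 libraries (CPM, log axis) for 446 miRs, with standard errors for the 31 miRs whose libraries did not overlap. miR-7224-3p (4.12) and miR-6240 (2.67) lie highest, at low abundance, and the 5 separated miRs on the lower side reach -1.84.

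miR-7224-3p had the largest difference. It had 3, 1 and 0 counts in the WT libraries and 65, 7 and 14 in the LA-Tg libraries, which is 0.19, 0.39 and 0 CPM against 3.91, 2.99 and 3.46 CPM. The groups were far apart and the LA-Tg libraries close together, although the WT values rest on 4 reads in all. This was a log2 fold change of 4.12 ± 1.02 (SE, unadjusted p = 0.0023, adjusted p = 0.971). It stayed between 3.68 and 4.46 when any library was left out, and it passed the unadjusted threshold in all 15 alternatives in which the miR was kept. It was not kept with the LA-Tg and WT libraries alone, without LA-Tg replicate 3 and Prog-Tg replicate 3, or with the 10 CPM filter. The filter kept it only through LA-Tg and Prog-Tg libraries in which it was high, so these passes are no separate support. Its sister arm miR-7224-5p had 0 counts in all 9 EC libraries. In Prog-Tg, which shares the WT controls, the values were 0.49, 1.65 and 3.06 CPM.

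miR-6240, from chromosome 5 (GRCm38.p6, 114851973 to 114851998, plus strand, with no host gene on that strand), stood at 2.69, 6.64 and 3.23 CPM in WT and 9.01, 15.8 and 53.5 CPM in LA-Tg. All LA-Tg libraries were above WT, but LA-Tg replicate 3 was far above the others. The fit gave a log2 fold change of 2.67 ± 0.92, or 6.35-fold (unadjusted p = 0.016, adjusted p = 0.971). Without LA-Tg replicate 3 it was 1.48 (unadjusted p = 0.12). At 69.2% its GC content is high, and with the GC relation removed as an offset the log2 fold change was 2.05 (unadjusted p = 0.023), with the library's GC slope as a term 1.91 (unadjusted p = 0.067). Prog-Tg replicate 3 was high as well, at 38.9 CPM against 7.90 and 6.59 in the other Prog-Tg libraries.

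miR-181c-5p was the miR with the smallest p on the lower side. It stood at 37.0, 29.3 and 46.3 CPM in WT and 18.7, 24.4 and 13.4 CPM in LA-Tg, so every LA-Tg library was lower. This is 2.00-fold lower (log2 fold change -0.998 ± 0.42, unadjusted p = 0.04, adjusted p = 0.971). The difference lay between -1.30 and -0.89 with any library left out and was -1.07 with the GC offset (unadjusted p = 0.021) and -0.97 with the GC slope as a term (unadjusted p = 0.028). With library size alone the groups overlapped. The miR lies on chromosome 8 (84178924 to 84178945, minus strand), within an intron of Nanos3 in the GENCODE annotation, a gene whose mRNA was too low to test in ECs.

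The miR-181 family regulates lymphocyte development and, in vessels, inflammatory signalling, and its members come from 3 paired loci. miR-181d-5p, from the same chromosome 8 locus and named after its values were seen, was also lower, at 83.5, 89.1 and 82.2 CPM in WT and 52.9, 77.4 and 58.7 CPM in LA-Tg (log2 fold change -0.43 ± 0.37). The sister arm miR-181c-3p gave -1.08 ± 0.62, with overlapping libraries. By contrast, the abundant miR-181a-5p, from chromosomes 1 and 2, stood at 3124, 2280 and 2548 CPM in WT and 2554, 1723 and 11290 CPM in LA-Tg. miR-181b-5p stood at 1013, 1102 and 730 CPM in WT and 1054, 990.8 and 3889 CPM in LA-Tg. Both were far above WT only in LA-Tg replicate 3, and their log2 fold changes of 0.97 and 1.06 were -0.39 and 0.019 without it. Prog-Tg replicate 3 held the same high values (11990 and 4083 CPM). Across the 8 tested miRs of the family 3 were above and 5 below 0, and the median was -0.25.

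miR-23b-5p is the less abundant arm of miR-23b, whose cluster with miR-27b and miR-24-1 acts in angiogenesis. It stood at 17.7, 14.8 and 16.9 CPM in WT and 34.97, 32.5 and 31.4 CPM in LA-Tg. These were tight groups, with no LA-Tg library under 31.4, although they overlapped with library size alone. The log2 fold change was 1.00 ± 0.45 (unadjusted p = 0.051, adjusted p = 0.971) and stayed between 0.82 and 1.03 under every alternative in which it was tested. The major arm miR-23b-3p had a log2 fold change of 0.11 ± 0.34. Within each library, where no scaling enters, miR-23b-5p reads were 0.493, 0.345 and 0.318% of miR-23b-3p reads in WT and 0.775, 0.704 and 0.609% in LA-Tg. These shares use the same reads by which the miR was chosen. In Prog-Tg its values were 15.3, 19.2 and 38.5 CPM. The miR lies on chromosome 13 (63300492 to 63300512, plus strand) in an intron of 2010111I01Rik, whose mRNA had a log2 fold change of 0.54 ± 0.43 (unadjusted p = 0.24, adjusted p = 1).

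miR-219a-5p, which promotes oligodendrocyte maturation in the brain and comes from chromosomes 2 and 17, was low in ECs. It stood at 16.3, 6.25 and 9.33 CPM in WT and 3.84, 3.85 and 1.24 CPM in LA-Tg. The LA-Tg libraries were lower under all 3 scalings, although LA-Tg replicates 2 and 3 rest on 9 and 5 reads. Its log2 fold change was -1.84 ± 0.86 (unadjusted p = 0.056, adjusted p = 0.971), the lowest of all 446 miRs. With the GC offset it was -1.67 (unadjusted p = 0.035), with the GC slope as a term -1.48 (unadjusted p = 0.11) and without LA-Tg replicate 3 -1.56 (unadjusted p = 0.13). In Prog-Tg it reached 22.8 CPM in replicate 1 and 7.14 and 2.40 CPM in the others.

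miR-28a-3p, from an intron of Lpp on chromosome 16 (24827908 to 24827929, plus strand), was the separated miR of middle abundance with the smallest p. It stood at 266, 292 and 288 CPM in WT and 584, 399.8 and 677 CPM in LA-Tg. The WT libraries were close together and every LA-Tg library was above them, except with library size alone, where the groups overlapped. Its log2 fold change was 0.97 ± 0.49 (unadjusted p = 0.076, adjusted p = 0.971). It was 0.80 with the GC offset, 0.59 with the GC slope as a term and 0.72 without LA-Tg replicate 3. The 5p arm of the same hairpin gave 0.21, and Lpp mRNA gave 0.16 ± 0.37 (unadjusted p = 0.67, adjusted p = 1).

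miR-125b-5p, the mammalian counterpart of worm lin-4 and the fourth most abundant miR in these libraries, stood at 28520, 58370 and 57680 CPM in WT and 86360, 63090 and 105100 CPM in LA-Tg. The groups were separated by a narrow gap, with LA-Tg replicate 2 just above 2 WT libraries, and they overlapped under RLE scaling and library size alone. For miR-125b-5p the log2 fold change was 0.82 ± 0.46 (unadjusted p = 0.11, adjusted p = 0.971). The other miRs with its seed were above 0 with overlapping libraries, miR-125a-5p at 0.80 ± 0.62 and miR-351-5p at 1.20 ± 0.89. The value for miR-125b-5p was 0.54 without LA-Tg replicate 3, 0.53 without WT replicate 1, 0.63 with the GC offset and 0.52 with the GC slope as a term.

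miR-99a lies in a chromosome 16 cluster with let-7c-1 and miR-125b-2, but let-7c-5p and miR-125b-5p also come from other chromosomes and their reads cannot be assigned to this cluster. miR-99a-3p, a minor arm, stood at 14.5, 15.6 and 13.6 CPM in WT and 4.45, 13.3 and 6.44 CPM in LA-Tg. It was lower in each LA-Tg library under all 3 scalings, but LA-Tg replicate 2 lay close to WT. The log2 fold change was -0.88 ± 0.58 (unadjusted p = 0.16) and -1.52 without LA-Tg replicate 2. The major arm miR-99a-5p gave -0.37 and let-7c-5p 0.32 ± 0.38.

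miR-194-2-3p is the minor arm of a miR-194 hairpin that is clustered on chromosome 19 with miR-192, a liver and gut miR. It stood at 2.503, 2.35 and 2.51 CPM in WT and 4.93, 5.13 and 11.1 CPM in LA-Tg. The groups did not overlap under any of the 3 scalings. Its log2 fold change was 1.52 ± 0.77 (unadjusted p = 0.077, adjusted p = 0.971) and 0.94 without LA-Tg replicate 3. It was 1.19 with the GC offset and 0.97 with the GC slope as a term. Its cluster partners were on the other side of 0 with overlapping libraries, miR-194-5p at -0.68 ± 0.61 and miR-192-5p at -0.88 ± 0.60.

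miR-7213-3p and miR-1198-5p were also above WT, with fewer reads or closer groups. miR-7213-3p, from an intron of Pdgfb on chromosome 15, rests on 20, 1 and 1 reads in WT and 42, 5 and 13 in LA-Tg, and its log2 fold change was 1.75 ± 0.82 (unadjusted p = 0.059, adjusted p = 0.971). For miR-7213-3p this was 2.75 without WT replicate 1, 1.44 without WT replicate 3, 1.59 with the GC offset and 1.23 with the GC slope as a term. The filter kept miR-7213-3p only through LA-Tg and Prog-Tg libraries in which it was high. It was not kept without LA-Tg replicate 3 and Prog-Tg replicate 3. miR-1198-5p, from an intron of Gripap1 on chromosome X, stood at 75.4, 94.2 and 136 CPM in WT and 209.7, 162 and 234 CPM in LA-Tg. Its log2 fold change was 0.99 ± 0.55 (unadjusted p = 0.1), while Gripap1 mRNA gave -0.04 ± 0.13. For miR-1198-5p the value was 0.77 with the GC offset and 0.64 with the GC slope as a term. Both miR-7213-3p and miR-1198-5p were above every WT library, miR-1198-5p only with TMM scaling.

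Of the other named miRs on the higher side, miR-139-5p and miR-365-3p were the most abundant. miR-139-5p, from an intron of Pde2a and known to restrain EC migration, stood at 872, 1039 and 1232 CPM in WT and 1973, 1386 and 1325 CPM in LA-Tg (log2 fold change 0.58 ± 0.38). miR-365-3p, the GC-poorest of the 20 named miRs with a sequence at 31.8%, stood at 764, 936 and 1568 CPM in WT and 1643, 1576 and 1835 CPM in LA-Tg (0.63 ± 0.42). In both the gap between the groups was small and closed under RLE scaling. For miR-139-5p the value was 0.33 without LA-Tg replicate 1, 0.34 with the GC offset and 0.43 with the GC slope as a term. For miR-365-3p the value was 0.41 without WT replicate 1, 1.03 with the GC offset and 0.44 with the GC slope as a term.

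miR-92a-1-5p, the minor arm of a miR-17-92 member on chromosome 14, stood at 49.7, 41.8 and 30.5 CPM in WT and 66.6, 67.1 and 54.2 CPM in LA-Tg (0.62 ± 0.38), with no overlap under all 3 scalings. The major arm miR-92a-3p gave 0.58 ± 0.47. The values of miR-664-5p rested on 1 library, at 13.8, 10.6 and 12.2 CPM in WT and 18.4, 14.1 and 50.0 CPM in LA-Tg. Its log2 fold change of 1.17 ± 0.71 was 0.34 without LA-Tg replicate 3, 0.86 with the GC offset and 0.42 with the GC slope as a term. miR-1306-3p, which lies in an exon of Dgcr8, gave 0.92 ± 0.61, while Dgcr8 mRNA gave -0.24 ± 0.17 (unadjusted p = 0.19, adjusted p = 1). miR-672-3p, from an intron of Nexmif, gave 0.66 ± 0.47. miR-1943-5p, with 3 to 81 reads per library, gave 1.28 ± 0.77, which was 0.90 with the GC offset and 0.54 with the GC slope as a term. miR-7018-3p, with 1 to 46 reads, gave 1.26 ± 0.76, which was 0.81 without WT replicate 3, 0.74 with the GC offset and 0.91 with the GC slope. The filter kept miR-7018-3p only through LA-Tg and Prog-Tg libraries, and it was not kept without LA-Tg replicate 3 and Prog-Tg replicate 3. None of the miRs in this paragraph had an unadjusted p under 0.05 in the main fit.

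**Figure D4:**
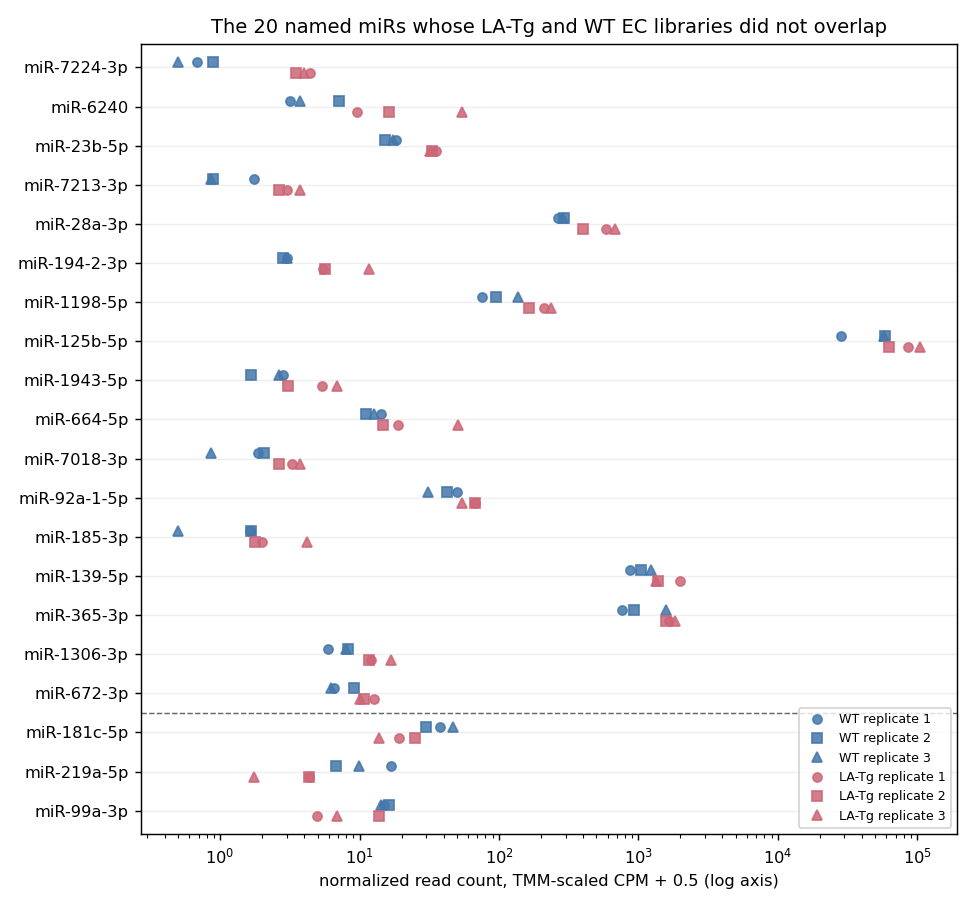
Normalized read count (TMM-scaled CPM + 0.5, log axis) in each of 3 WT (blue) and 3 LA-Tg (red) EC libraries for the 20 separated miRs of smallest p, with 17 higher and, under the dashed line, 3 lower in LA-Tg. The widest gap is that of miR-7224-3p, from 0.39 to 2.99 CPM, and in miR-6240 and miR-664-5p LA-Tg replicate 3 lies far to the right.

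Sister arms can be read against each other without any scaling between libraries. For 120 hairpins both arms were tested, and the log2 fold changes of the arms had the same sign in 76. The median was 0.05 for the more abundant arms and -0.05 for the less abundant, and the less abundant arm had the higher value in 54 of 120. The share of the minor arm was computed for 11 hairpins only, miR-126a and those that carry a miR named for its separated libraries. It was higher in every LA-Tg library than in any WT library for miR-23b, as given above, and for miR-185. For miR-185 it was 0.434, 0.664 and 0% in WT and 1.13, 0.752 and 2.29% in LA-Tg. In both the minor arm is the miR chosen for its separation, so the share reuses the same reads and is no separate support. How often such shares separate among all 120 hairpins was not computed. miR-185-3p rests on 0 to 25 reads per library. Its log2 fold change of 1.38 ± 0.89 was 0.70 without LA-Tg replicate 3, 0.89 with the GC offset and 1.335 with the GC slope as a term. The filter kept miR-185-3p only through LA-Tg and Prog-Tg libraries, and it was not kept without LA-Tg replicate 3 and Prog-Tg replicate 3. In the other 9 the libraries overlapped, among them miR-126a, whose 5p arm was 18.8 to 24.7% of the 3p arm in WT and 15.3 to 23.1% in LA-Tg.

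The most abundant miRs set the make-up of the libraries, and they did not separate the genotypes. miR-126a-3p took 29.6 ± 1.91% of WT counts and 27.0 ± 7.76% of LA-Tg counts (SD, n = 3 each, exact permutation p = 0.9, two-sided). It stood at 331100, 432800 and 205300 CPM in WT and 249100, 477100 and 165500 CPM in LA-Tg, with a log2 fold change of -0.12 ± 0.46. Egfl7, its host, gave 0.06 ± 0.29 in mRNA (unadjusted p = 0.83, adjusted p = 1).

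miR-21a-5p, from the Vmp1 locus and raised in many stressed cells, stood at 113100, 149800 and 20350 CPM in WT and 32020, 114900 and 27400 CPM in LA-Tg (log2 fold change -0.70 ± 0.81). WT replicate 3 was as low as LA-Tg replicates 1 and 3, and LA-Tg replicate 2 as high as the other WT libraries. The libraries split the same way by GC content above, and whether this is linked to miR-21a-5p was not tested. Its log2 fold change was -0.32 with the GC offset and 0.28 with the GC slope as a term. The other members of the 10 most abundant (miR-126a-5p, let-7c-5p, let-7f-5p, let-7a-5p, miR-16-5p, miR-10b-5p and miR-26a-5p) had log2 fold changes between -0.29 and 0.42, each with overlapping libraries. Only miR-125b-5p among the 10 had groups without overlap.

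**Figure D5:**
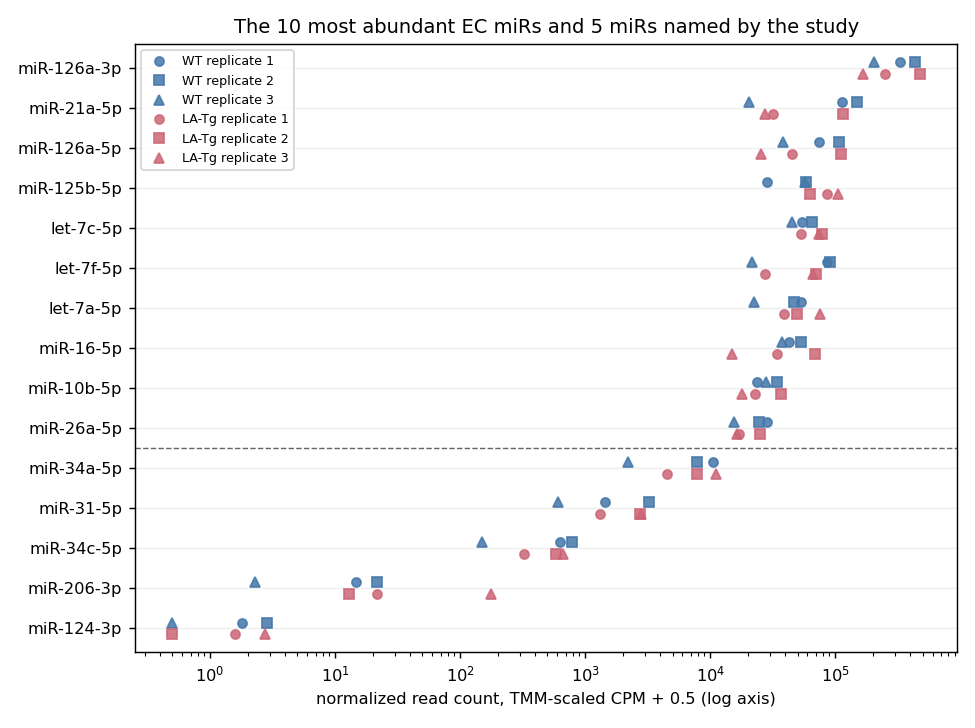
Normalized read count (TMM-scaled CPM + 0.5, log axis) in each of 3 WT (blue) and 3 LA-Tg (red) EC libraries for the 10 most abundant miRs and, under the dashed line, 5 tested miRs that the study names. For miR-206-3p LA-Tg replicate 3 lies alone at 177 CPM, and for miR-34a-5p the WT and LA-Tg points interleave between 2207 and 11180 CPM.

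The study names 6 miRs linked to senescence, and it chose them on libraries of this series. Of these, 5 were tested and none passed the unadjusted threshold. miR-34a-5p, which p53 induces, stood at 10550, 7902 and 2207 CPM in WT and 4545, 7776 and 11180 CPM in LA-Tg (log2 fold change 0.19 ± 0.55, exact permutation p = 0.7). Each group spanned low and high libraries, and without LA-Tg replicate 3 the value was -0.26. miR-31-5p stood at 1446, 3212 and 605 CPM in WT and 1305, 2767 and 2811 CPM in LA-Tg (0.39 ± 0.59, exact permutation p = 0.7), with a log2 fold change of 0.10 without LA-Tg replicate 3.

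miR-206-3p stood at 14.1, 21.1 and 1.79 CPM in WT and 21.1, 12.4 and 177 CPM in LA-Tg. Only LA-Tg replicate 3 was above WT, and Prog-Tg replicate 3 was at 179 CPM. The log2 fold change of 2.51 ± 1.21 (unadjusted p = 0.065, adjusted p = 0.971) was 0.37 without LA-Tg replicate 3. miR-34c-5p (0.01 ± 0.59) and miR-124-3p (-0.07 ± 1.11) lay near 0. miR-485-5p was too low to test, with 5, 0 and 1 reads in WT and 29, 3 and 1 in LA-Tg.

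Lists of miRs with a shared role or locus held up to 2 separated members each, beside 5.83% of all miRs tested on the higher side and 1.12% on the lower. With so few members these counts are a description only. Beside a median of 0.05 and 236 of 446 above 0 for all miRs tested, the endothelial miRs had a median of 0.10 with 10 of 18 above 0 and 2 separated (miR-125b-5p and miR-139-5p). The let-7 family, which restrains growth and development, had a median of 0.32 with 6 of 11 above 0. One member was separated, let-7b-5p, at 11170, 11190 and 13850 CPM in WT and 16060, 16850 and 18500 CPM in LA-Tg (log2 fold change 0.51 ± 0.41), named after its values were seen.

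Inflammatory miRs (arms of miR-21a, miR-146, miR-147, miR-155, miR-132 and miR-212) had a median of -0.20, with 4 of 12 above 0. miR-146a-5p, which NF-κB induces and which damps that pathway, ran from 1846 to 21360 CPM in WT and from 3827 to 24000 CPM in LA-Tg. miR-155-5p ran from 811 to 4766 CPM in WT and from 1765 to 4496 CPM in LA-Tg. No member was separated or passed a threshold.

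The miR-29 and miR-30 families, which act on matrix genes and on sprouting, had 6 of 18 members above 0 and a median of -0.14. The 7 mesenchymal miRs were all below 0, with a median of -0.34. Their leading member miR-199a-3p stood at 7063, 3862 and 9421 CPM in WT and 9240, 5364 and 1532 CPM in LA-Tg, so the low LA-Tg replicate 3 set that side. miR-199a-3p and miR-199b-3p have the same mature sequence and their reads cannot be told apart. The 13 neural miRs had 3 above 0 and a median of -0.41, with miR-219a-5p as the separated member.

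The Dlk1-Dio3 cluster on chromosome 12, an imprinted locus with the largest miR cluster, had 20 of 32 members above 0 and a median of 0.31. Its summed level ran from 185.6 to 719 CPM in WT and from 79.1 to 1137 CPM in LA-Tg, and replicate 1 was the highest in both genotypes. The Sfmbt2 cluster had 6 of 17 above 0 and a median of -0.17. All 4 tested miRs of the X-linked testis cluster lay above 0 (median 1.65), with summed levels of 6.63, 21.9 and 2.15 CPM in WT and 5.95, 23.9 and 37.9 CPM in LA-Tg. miR-465b-3p and miR-465c-3p have identical counts, 14, 12 and 2 in WT and 12, 18 and 42 in LA-Tg. Those of miR-465a-3p were in fixed proportion to them (7, 6 and 1, and 6, 9 and 21), so these entries are not separate values. The 6 tested blood cell miRs had a median of -0.15, and miR-150-5p, a lymphocyte miR, had a log2 fold change of -1.04 that was 0.50 without WT replicate 3.

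Below the filter, some miRs had a read in all 3 libraries of one genotype and none in the other, and the 8 with the most reads follow. miR-6981-5p had 14, 2 and 1 reads in LA-Tg and 0 in WT, which is at least 6.37-fold higher against a floor of 3 counts over the WT group. For miR-7677-3p with 10 reads and miR-871-5p with 9 the bound was 3.75-fold and 3.37-fold. miR-467c-3p (7 reads) and miR-466l-3p (6 reads) of the Sfmbt2 cluster were seen in WT alone, at least 2.08-fold and 1.78-fold lower in LA-Tg. miR-5122, miR-7004-3p and miR-6389 had 4 reads each. These bounds cover counting error only. The miRs were picked because a single genotype held all their reads, so the direction of each difference follows from the choice. The share of all miRs below the filter with this pattern was not counted.

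Of the 20 named miRs without overlap, 19 had a locus in the annotation, 11 of them in an intron and 1 in an exon of a coding gene. In the mRNA of ECs, 11 host or overlapping transcripts of these miRs could be tested. None passed an unadjusted p under 0.05, where 0.405% of 14584 genes were higher and 0.425% lower, and their log2 fold changes lay between -0.24 (Dgcr8) and 0.71 (Pdgfb, adjusted p = 1). Tango2, host of miR-185, gave 0.18 ± 0.23 and Hspg2, host of miR-7018, -0.05 ± 0.28.

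In medium conditioned by ECs, 9 of the 20 miRs were abundant enough to test, at totals of 266683 to 1137332 counts per library. None passed the unadjusted threshold (0.392% of 255 miRs were higher and 2.75% lower), none was separated (1.57% of all were higher without overlap and 6.27% lower), and 2 of 9 were on the same side of 0 as in ECs. miR-6240 stood at 211, 377 and 444 CPM in WT medium and 361, 225 and 281 CPM in LA-Tg medium (log2 fold change -0.25 ± 0.72, adjusted p = 0.9996). miR-181c-5p gave 0.09 ± 0.81 and miR-125b-5p 0.98 ± 1.42. Each of these errors is larger than the difference it belongs to.

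In plasma of mice over 25 weeks old, where EC donors were 10 to 15 days old, 5 of the 20 were kept and none passed the unadjusted threshold (3.39% of 118 miRs were higher and 0.847% lower). None was separated either, where 4.24% of all were higher without overlap and 3.39% lower. miR-181c-5p was at 0 CPM in the 3 WT plasma libraries and at 36.2, 39.5 and 0 CPM in LA-Tg (unadjusted p = 0.076, adjusted p = 0.691). Most libraries were at 0 for this miR, and plasma libraries were made with another kit, so the levels are not comparable with those of ECs.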

How the data were processed

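The authors made QIAseq miRNA libraries from total RNA of ECs, mapped them with STAR 2.5.1b (build GRCm38), counted with HTSeq 0.5.4p3 and tested in R 3.3.2, per the submitters' processing notes. The deposited values are raw counts per miR or gene, and no collapsing of reads by molecular identifiers is described. Deposited tables of the authors' own comparisons (fold changes and p values) were not used. Libraries were grouped by the sample labels.

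The tool here was edgeR 4.0.16 under R 4.3.3. All 9 EC miR libraries were fitted by genotype after filterByExpr (minimum count 10, minimum total 15) and TMM scaling, and compared by edgeR's quasi-likelihood test, with Benjamini-Hochberg adjustment over the 446 miRs kept. The SE is the log2 fold change divided by the root of F. EC mRNA, medium and plasma were fitted in the same way. Alternatives used DESeq2 1.42.0, limma 3.58.1, other filters and scalings, a replicate block, and left-out libraries. The fits were tested on simulated data. Named miRs were the 20 with the smallest p among those whose libraries did not overlap, the 10 most abundant, the 4 most abundant of each list, the 6 the study names, and up to 8 present in one genotype only. The members and lists were chosen with earlier results of these data known. Hosts came from a list of known pairs and from overlap on the same strand in GENCODE M21, and sequences from RefSeq.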

Additional observations from a re-analysis of the deposited data

How the results depend on the processing

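No setting gave an adjusted call: with edgeR, DESeq2 and limma-voom the smallest adjusted p lay between 0.21 and 0.9998 over 20 alternatives, with 3 to 33 miRs at an unadjusted p under 0.05.

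The 2 higher miRs at the unadjusted threshold became 4 with DESeq2, limma-voom or the LA-Tg and WT libraries alone, 15 with no filter, 1 with at least 10 CPM in 3 libraries, and 2 to 7 with a library left out. The 1 lower miR became 2 with DESeq2, RLE scaling or the 10 CPM filter, 18 with no filter, 0 with library size alone, and 0 to 5 with a library left out. Groups without overlap, 26 higher and 5 lower, became 9 and 8 with the 10 CPM filter, 14 and 10 with RLE scaling, and 8 and 10 with library size alone. With no filter 15 were lower, and the number higher is not given here. The cause was not tested. Alternatives chosen after seeing the data gave 1 higher and 2 lower without LA-Tg replicate 3 and Prog-Tg replicate 3, 1 and 3 with the GC offset, and 1 and 2 with only miRs that have a sequence.

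Deviations of same-numbered WT and LA-Tg libraries correlated at 0.28, 0.526 and 0.00508 for replicates 1 to 3. The closest pairs of EC miR libraries shared a replicate number across genotypes. They were LA-Tg 3 with Prog-Tg 3 (r = 0.989), WT 2 with Prog-Tg 2 (0.983), WT 1 with Prog-Tg 1 (0.979) and WT 2 with LA-Tg 2 (0.977). Other same-numbered pairs were not close, such as WT 3 with LA-Tg 3 (0.914). Depth differed by number too. Replicate 1 had 18477136, 14395756 and 19288343 counts in WT, LA-Tg and Prog-Tg, and Prog-Tg 3 had 13781817. All other EC miR libraries had 3736821 or less. The study states that WT and Prog-Tg ECs came from littermate pairs, without tying pairs to numbers. Whether the numbers mark a shared preparation was not tested, and the main fit has no replicate term. With the replicate block 9 were higher and 5 lower at the unadjusted threshold, the smallest adjusted p was 0.758, and miR-124-3p turned to 0.12.

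Signs also turned elsewhere, for small and for large differences. With a library left out, miR-145a-5p (1.52) ran from -1.55 to 2.32, miR-150-5p (-1.04) from -1.62 to 0.50 and miR-181a-5p (0.97) from -0.39 to 1.29, and miR-181b-5p (1.06) was -0.064 without LA-Tg 3 and Prog-Tg 3. With a library left out, miR-126a-3p ran from -0.73 to 0.067, miR-126a-5p from -1.15 to 0.0085, let-7f-5p from -0.80 to 0.018, miR-16-5p from -0.93 to 0.12, miR-34a-5p from -0.33 to 0.61, miR-31-5p from -0.13 to 1.08, miR-34c-5p from -0.54 to 0.36 and miR-124-3p from -0.88 to 0.47. Without LA-Tg 3 and Prog-Tg 3, let-7a-5p was -0.051, miR-16-5p 0.027, miR-34a-5p -0.32 and miR-34c-5p -0.35. With the GC slope miR-126a-3p was 0.20, miR-21a-5p 0.28, miR-126a-5p 0.18, miR-16-5p 0.057 and miR-124-3p 0.56, and with the GC offset let-7f-5p was 0.75. miR-34c-5p was -0.0078 with DESeq2, -0.060 with no filter, -0.086 with the 10 CPM filter, -0.0077 with RLE scaling and -0.018 with identical miRs collapsed. miR-124-3p was 0.28 with library size alone. For 20 lists, 397 medians were computed over the alternative settings, and 16 of these moved by more than the spread between replicates. All moves fell in the lists named next, in several of them under more than a single setting. Among them, without LA-Tg replicate 2, were the neural (-0.80), miR-181 (-0.79), blood cell (-0.93), liver and gut (-0.65), angiogenic (-0.49) and miR-15/16 (-0.71) lists, and without LA-Tg replicate 1 the Dlk1-Dio3 cluster turned from 0.31 to -1.55. The cause was not tested.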
